A study of Mus musculus with 12 samples.

Results

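The genes described here encode the nuclear-encoded subunits of respiratory complexes II, III, IV and V. They were taken from the deposited table by gene symbol: Sdha to Sdhd for complex II, Cyc1 and the Uqcr genes for complex III, the Cox4 to Cox8 genes for complex IV and the Atp5 genes for complex V, protein-coding only and without Atp5s and Atp5sl. This gave 48 genes of 54532, with 4 in complex II, 9 in complex III, 18 in complex IV and 17 in complex V. The rule uses gene symbols and no measured value, though it was set with earlier results of these data known. The RNA came from E12.5 mouse limb buds, the stage given by the labels, in 12 libraries that form 4 groups of 3 biological replicates. The cKO groups, polysome and input, carry the genotype Mettl14 flox/flox and are labelled as the knockout. The cHet groups, polysome and input, carry Mettl14 wt/flox and serve as controls, so the controls also hold a floxed allele. METTL14 is a subunit of the RNA m6A methyltransferase. The Cre driver, the cells in which it acts, the deleted exons and the number of embryos behind a lysate are not given in the sources used here. Input RNA came from a cytoplasmic lysate, and polysome RNA from the sucrose-gradient fractions of such a lysate that hold mRNAs with several ribosomes.

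Complex II (succinate dehydrogenase) and complex III (the cytochrome bc complex) pass electrons through ubiquinone to cytochrome c, and complex IV (cytochrome c oxidase) passes them to oxygen. Complexes III and IV pump protons across the inner mitochondrial membrane, and complex V (ATP synthase) uses that gradient to make ATP. Complex II is built from nuclear genes alone, whereas complexes III, IV and V also contain subunits made inside the mitochondrion from the mitochondrial genome, so the nuclear mRNAs below are translated in the cytosol and their products imported.

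Most of these mRNAs are short, and coding length turned out to order the polysome results, so the coding sequences that bear on them are shown first. Coding lengths come from the main GENCODE M21 transcript of each gene and leave out the stop codon, and coordinates are those of the deposited table on mm10. The median coding length was 334.5 bases for the members, against 1128 bases for all annotated coding genes. Uqcr11 (chr10:80402997-80406830, minus strand) and Cox6b1 (chr7:30616861-30626151, minus strand), among the members with the greatest gain on polysomes, and Atp5e (chr2:174461072-174464105, minus strand), which is as short but did not pass the test, are given whole, with the start and stop codons in capitals.
Uqcr11: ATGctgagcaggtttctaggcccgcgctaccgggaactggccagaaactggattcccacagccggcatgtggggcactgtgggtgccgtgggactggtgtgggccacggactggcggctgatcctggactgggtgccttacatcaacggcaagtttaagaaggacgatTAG
Cox6b1: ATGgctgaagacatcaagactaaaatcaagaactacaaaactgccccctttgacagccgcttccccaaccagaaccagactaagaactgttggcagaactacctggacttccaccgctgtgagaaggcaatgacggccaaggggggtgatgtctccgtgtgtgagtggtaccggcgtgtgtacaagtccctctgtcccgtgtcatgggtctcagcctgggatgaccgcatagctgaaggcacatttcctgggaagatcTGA
Atp5e: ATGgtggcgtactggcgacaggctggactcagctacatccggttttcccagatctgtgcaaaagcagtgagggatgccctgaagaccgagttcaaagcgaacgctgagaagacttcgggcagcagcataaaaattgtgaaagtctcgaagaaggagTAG

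The members over 1000 coding bases were Sdha, Uqcrc1, Uqcrc2, Atp5a1 and Atp5b. The first 60 coding bases of Sdha (chr13:74322254-74350280, minus strand), Uqcrc1 (chr9:108936633-108949623, plus strand), Uqcrc2 (chr7:120635176-120659524, plus strand) and Atp5b (chr10:128083273-128090391, plus strand) mark where reading frames of 1992, 1440, 1359 and 1587 bases begin, with the start codon in capitals.
Sdha: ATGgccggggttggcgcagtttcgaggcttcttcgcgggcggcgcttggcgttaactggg
Uqcrc1: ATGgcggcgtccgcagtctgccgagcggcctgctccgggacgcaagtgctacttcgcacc
Uqcrc2: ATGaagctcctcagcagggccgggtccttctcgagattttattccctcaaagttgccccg
Atp5b: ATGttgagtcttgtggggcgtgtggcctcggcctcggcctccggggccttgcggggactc

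The c subunit of ATP synthase, which forms the rotating ring in the membrane, is encoded by Atp5g1 (chr11:96068852-96075670, minus strand), Atp5g2 (chr15:102662864-102672352, minus strand) and Atp5g3 (chr2:73908447-73911326, minus strand). The encoded proteins are identical over their last 78 residues. Their last 90 coding bases, stop codon included, differ at 24 positions, which stand in capitals, so the mRNAs can be told apart although the ring subunit is the same.
Atp5g1: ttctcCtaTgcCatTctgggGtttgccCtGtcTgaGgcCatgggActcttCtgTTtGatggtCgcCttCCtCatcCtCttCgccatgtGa
Atp5g2: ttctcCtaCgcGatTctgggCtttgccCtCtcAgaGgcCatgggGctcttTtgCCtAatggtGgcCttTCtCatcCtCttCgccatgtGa
Atp5g3: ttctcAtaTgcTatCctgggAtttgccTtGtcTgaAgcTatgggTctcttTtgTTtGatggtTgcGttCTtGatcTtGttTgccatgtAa

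The libraries held 10349912 to 30068823 assigned reads. Reads of the 48 genes made up 1.03% to 1.17% of the polysome libraries and 0.695% to 0.888% of the input libraries. Mettl14 itself stood at 2.73, 2.81 and 3.29 FPKM in cKO polysomes, against 2.83, 3.07 and 3.02 FPKM in cHet polysomes, so on polysomes the genotypes overlapped. In input it stood at 2.60, 3.32 and 1.26 FPKM in cKO, against 4.09, 4.03 and 4.04 FPKM in cHet, with no overlap, but the difference did not pass the test (log2 difference -0.83 ± 0.32 SE, limma, Benjamini-Hochberg adjusted p = 0.295). The Mettl14 values cover all exons, deleted or not, so they check the labels only in part, and the polysome values do not check them. In bulk samples such as these, fewer cells of a type and less RNA per cell cannot be told apart. All 8 limb mesenchyme markers (Prrx1, Prrx2, Twist1, Msx1, Tbx5, Tbx4, Hand2 and Lhx9) were above 0 in every library, with a summed level of 1044, 1271 and 1514 FPKM in cKO polysomes and 1118, 1138 and 1178 FPKM in cHet polysomes, against 885, 741 and 954 FPKM in cKO input and 588, 615 and 680.4 FPKM in cHet input. Of the 12 libraries, cKO polysome replicate 1 and cKO input replicate 3 stood apart: on the first principal component cKO polysome replicate 1 scored 3.97 against 35.5 to 53.8 for the other polysome libraries, and on the second component cKO input replicate 3 scored -63.0 against 0.49 to 22.5 for the other input libraries. Several calls and medians are also given without them.

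FPKM is a level per kilobase of gene model, so it can be compared between genes as far as the gene length fits the transcript made. Cox7b2, Cox8c and a second Atp5o identifier reached the limit for testing, an FPKM of 1 in at least 3 fitted libraries, in no comparison, and Cox7a1 failed it in input. In complex II, Sdhd, a membrane anchor, had the highest level, at 179, 159.6 and 227 FPKM in cKO polysomes, 205, 178 and 201 FPKM in cHet polysomes, 100.1, 100.2 and 138 FPKM in cKO input, and 106, 101 and 104 FPKM in cHet input. Its levels on polysomes lay above all input levels in both genotypes. Sdha, the flavoprotein that oxidises succinate, had the lowest level of that complex.

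In complex III, Uqcr10, a small accessory subunit, had the highest level, with 238, 392 and 407 FPKM in cKO polysomes, 306, 383 and 273 FPKM in cHet polysomes, 145, 138 and 177 FPKM in cKO input, and 131, 141 and 133 FPKM in cHet input. Uqcrc2, a core protein, had the lowest. In complex IV, Cox6a1, a subunit of the common (non-muscle) form, had the highest level, at 682, 893 and 1131 FPKM in cKO polysomes, 921, 961 and 878 FPKM in cHet polysomes, 337, 340.3 and 479 FPKM in cKO input, and 349, 348 and 339 FPKM in cHet input. Cox7a1, the heart and muscle form, was the lowest tested gene, at 0.746 to 1.89 FPKM on polysomes and 0.362 to 0.744 FPKM in input.

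In complex V, Atp5a1, the alpha subunit of the catalytic head, had the highest mean over the 12 libraries (213 FPKM) and Atp5l, the g subunit of the membrane part, the lowest (15.7 FPKM). Both positions depend on the gene length used, because the deposited length of Atp5l is 6443 bases, against 544 bases for its main transcript. On main transcript lengths Atp5l came to 185 FPKM, Atp5a1 moved to place 7 in its complex and Atp5g3 led it, and Uqcrh took the lead of complex III from Uqcr10. Cox6a1 and Sdhd led their complexes on either length.

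**Figure D1:**
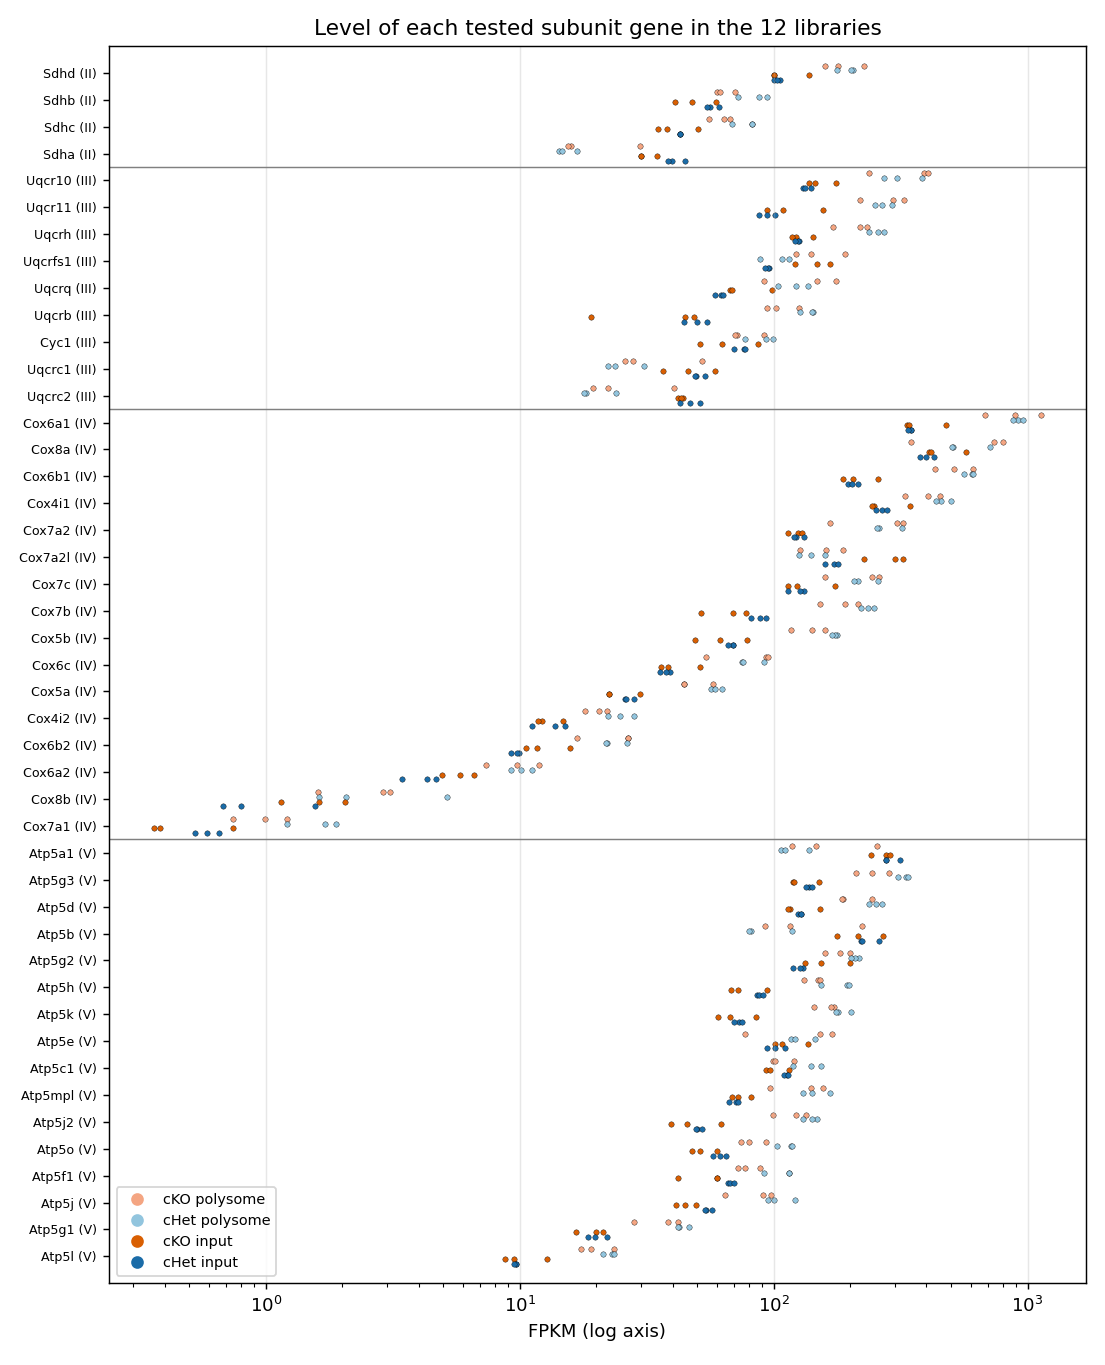
Level of each of the 45 tested genes in each of the 12 libraries, as FPKM on a log axis, 1 point per library, ordered by complex and then by mean level. Polysome points (pale) lie to the right of input points (dark) for most genes and to the left for Sdha, Uqcrc1, Uqcrc2, Atp5a1, Atp5b and Cox7a2l, with overlap for some of them.

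Summed over tested members, complex IV reached 3602 ± 844 FPKM in cKO polysomes and 3811 ± 251 FPKM in cHet polysomes, against 2118 ± 356 FPKM in cKO input and 1886 ± 61.1 FPKM in cHet input (SD, n = 3 each). Complex V reached 2051 ± 55.1 and 2312 ± 51.2 FPKM in cKO and cHet polysomes, against 1581 ± 205 and 1625 ± 44.7 FPKM in cKO and cHet input. Complex IV held 47.5%, 50.5% and 47.7% of the members' summed level in cHet polysomes, against 42.1%, 43.1% and 41.0% in cHet input, with no overlap. In cKO it held 42.8%, 51.1% and 51.6% on polysomes, against 44.6%, 43.4% and 45.4% in input, so the groups overlapped, with cKO polysome replicate 1, a library that stands apart, below every cKO input library. Complex V held 28.2% ± 3.78 of the summed level in cKO polysomes and 29.5% ± 1.39 in cHet polysomes, against 33.3% ± 0.885 in cKO input and 36.2% ± 0.725 in cHet input (SD, n = 3 each). In single libraries, complex III held 18.4% to 19.2% on polysomes, against 17.0% to 17.5% in input, in cKO. In cHet it held 16.7% to 17.5%, against 16.0% to 16.5%, so neither genotype showed overlap. Complex II held 3.84% to 5.53% on cKO polysomes, against 4.77% to 5.04% in cKO input, and these groups overlapped. In cHet it held 4.12% to 5.19% on polysomes, against 5.21% to 5.60% in input, narrowly apart.

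Several complex IV subunits have a common form and a form known from muscle, lung or testis. The common form made up most of each set in all 4 groups. Cox4i2, the form known from lung and from hypoxia, took 4.91% ± 0.29 of Cox4i1 plus Cox4i2 in cKO polysomes and 5.12% ± 0.24 in cHet polysomes, against 4.48% ± 0.32 in cKO input and 4.76% ± 0.66 in cHet input (SD, n = 3 each). Cox6b2, known as a testis form, took 4.29% ± 0.61 of its set in cKO polysomes and 3.80% ± 0.30 in cHet polysomes, against 5.51% ± 0.23 in cKO input and 4.50% ± 0.07 in cHet input. In input its shares in the genotypes did not overlap.

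The muscle forms Cox6a2, Cox7a1 and Cox8b took at most 1.70% of their sets in any library. The 10 skeletal muscle markers checked with them were above 0 in every library and summed to 464 to 655 FPKM on polysomes and 535 to 701 FPKM in input. Of the testis forms, Cox8c was at 0 in 11 libraries and at 1 read in cHet polysome replicate 2, and Cox7b2 did not exceed 0.429 FPKM or 6 reads.

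Among the c subunit genes, Atp5g2 took 43.3%, 35.9% and 38.2% of the set in cKO polysomes and 36.5%, 35.5% and 36.5% in cHet polysomes, against 52.9%, 48.6% and 53.8% in cKO input and 42.6%, 44.7% and 45.5% in cHet input. The share of Atp5g2 was therefore lower on polysomes than in input in both genotypes with no overlap, and in input higher in cKO than in cHet with no overlap. Atp5g3 took the complementary place, with means of 53.1% and 56.3% in cKO and cHet polysomes and of 42.0% and 48.6% in cKO and cHet input. Atp5g1 took 5.69% to 9.41% in any library. These shares use the deposited gene lengths: by reads alone, Atp5g1 averaged 16.3% of the set and Atp5g2 33.3%.

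**Figure D2:**
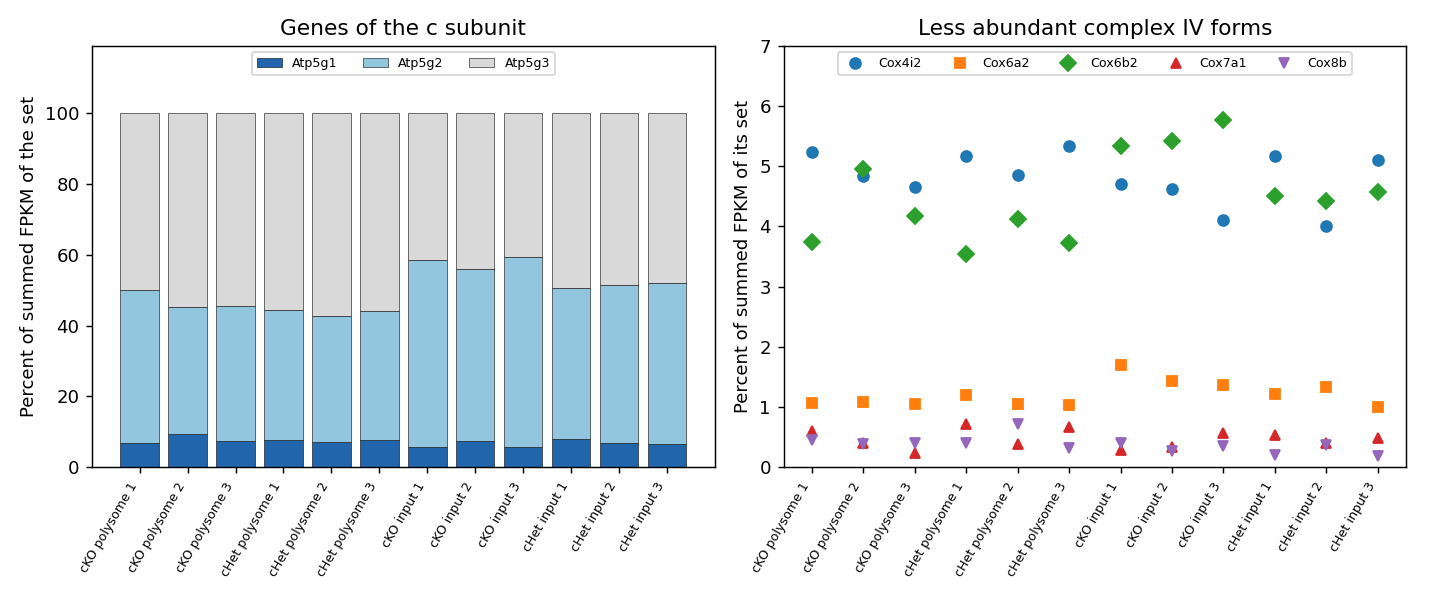
Percent of the summed FPKM of a set of paralogs in each of the 12 libraries. Left, stacked bars for Atp5g1, Atp5g2 and Atp5g3, in which Atp5g2 takes less on polysomes than in input of the same genotype; right, points for the less abundant complex IV forms, none of which exceeds 6% in any library.

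The comparison of polysomes with input asks which of these mRNAs are over-represented among ribosome-loaded RNA. In cHet limb buds, 34 of 45 tested members were higher on polysomes, 5 were lower and 6 did not pass (limma on log2(FPKM + 0.1), Benjamini-Hochberg adjusted p under 0.05 over all genes tested). Of all 13610 genes tested, 27.3% were called higher and 25.9% lower, 53.2% in all. The members' median log2 difference was 0.99, against 0.02 for all genes. In cKO limb buds, 31 members were higher, 4 lower and 10 did not pass, with a median of 0.72 against 0.06 for all genes. There 16.9% of all genes were called higher and 15.6% lower, 32.5% in all. Without both libraries that stand apart, 35 members were higher and 6 lower in cKO, with a median of 1.00, while 29.5% of all genes were called higher and 30% lower. Both are cKO libraries, yet without them 37 members were higher and 5 lower in cHet. Of 13472 genes, 4844 were then called higher and 4814 lower in cHet. When each library was instead scaled to its nuclear protein-coding genes, 35.4% of all calls in cHet were higher ones in place of 51.3%, and 38.7% in cKO in place of 52.1%, while the members had 32 higher and 6 lower in cHet and 29 higher and 4 lower in cKO. A log2 difference on this scale understates the change of low genes, and it is relative to the rest of the library, so it does not measure the fraction of an mRNA that carries ribosomes. The replicates are biological replicates per the labels, and the p-values measure the spread between them. For each gene this fit took a single spread shared by all 12 libraries. The p-values in cHet therefore also carry the spread of the cKO libraries, and the SE is the same in both genotypes.

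By complex, in cHet, 14 of 16 tested members of complex IV were higher and 0 lower, with a median log2 difference of 1.21. Complex V had 12 higher and 2 lower of 16 (median 0.96), complex III 5 higher and 2 lower of 9 (median 0.97) and complex II 3 higher and 1 lower of 4 (median 0.70). In cKO, complex IV had 13 higher and 1 lower (median 0.88), complex V 11 and 1 (median 0.75), complex III 5 and 1 (median 0.69) and complex II 2 and 1 (median 0.50). Differences between complexes were not tested, since subunits are not replicates of a complex.

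Cox6b1, a subunit on the intermembrane face of complex IV, had 603, 612 and 564 FPKM in cHet polysomes, against 196, 215 and 203 FPKM in cHet input. The groups were far apart, and the log2 difference was 1.54 ± 0.15 (SE; limma, adjusted p = 8.69e-05), a 2.90-fold higher value. Uqcr11, a small complex III subunit, had 266, 292 and 251 FPKM in cHet polysomes, against 87.3, 94.5 and 101 FPKM in cHet input (log2 difference 1.51 ± 0.19, adjusted p = 0.000161). Atp5j2, the f subunit of the ATP synthase membrane part, had 148, 142 and 131 FPKM in cHet polysomes, against 49.9, 52.2 and 49.5 FPKM in cHet input (log2 difference 1.47 ± 0.17, adjusted p = 0.000109). For all 3 genes every cHet polysome library lay above every cHet input library. Uqcrb, a complex III subunit beside the quinone site, had 143, 127 and 141 FPKM in cHet polysomes, against 54.5, 44.5 and 49.9 FPKM in cHet input (log2 difference 1.47 ± 0.28, adjusted p = 0.00123).

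The other members called higher in cHet lay between 0.56 and 1.42 on the log2 scale. In complex II they were Sdhb, the iron-sulfur subunit (0.56), and the membrane anchors Sdhc (0.85) and Sdhd (0.91). In complex III they were the small subunits Uqcr10 (1.23), Uqcrh (1.04), the hinge protein that binds cytochrome c1, and Uqcrq (0.97). In complex IV, Cox5a (1.15) and Cox5b (1.35), the matrix-facing subunits, and Cox4i1 (0.80), the largest nuclear subunit, were higher, as were the tissue forms Cox4i2 (0.91), Cox6a2 (1.28), Cox6b2 (1.27), Cox7a1 (1.29) and Cox8b (1.36). In complex V, the c subunit genes Atp5g1 (1.12), Atp5g2 (0.73) and Atp5g3 (1.24) were higher, as were the stalk subunits Atp5f1 (0.65), Atp5h (1.03), Atp5j (0.94) and Atp5o (0.88), the rotor subunit Atp5d (0.99), and Atp5k (1.35), Atp5l (1.22) and Atp5mpl (1.06) of the membrane part. Cox6a1 (1.41), Cox6c (1.11), Cox7a2 (1.15), Cox7b (1.42) and Cox7c (0.87) complete the list.

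In cKO, the members with the greatest gain on polysomes were Uqcrb, Cox7b, Atp5j2 and Cox6b1. Uqcrb had 94.3, 102 and 126 FPKM in cKO polysomes, against 44.8, 48.8 and 19.1 FPKM in cKO input (log2 difference 1.62 ± 0.28, limma, adjusted p = 0.00196). The low input value is that of replicate 3, a library that stands apart, and the difference ranged from 1.19 to 1.86 when any library was left out. Cox7b, a small complex IV subunit encoded on the X chromosome, had 152, 191 and 216 FPKM in cKO polysomes, against 69.5, 78.0 and 51.8 FPKM in cKO input (log2 difference 1.49 ± 0.17, adjusted p = 0.000292). Atp5j2 had 99.6, 123 and 134 FPKM in cKO polysomes, against 39.6, 45.8 and 61.8 FPKM in cKO input (log2 difference 1.29 ± 0.17, adjusted p = 0.000497). Cox6b1 had 434, 512 and 611 FPKM in cKO polysomes, against 188, 205 and 257 FPKM in cKO input (log2 difference 1.26 ± 0.15, adjusted p = 0.000374). For each of these genes every polysome library lay above every input library of its genotype.

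The 5 members that were lower on cHet polysomes were the 5 with a coding length over 1000 bases. They come from 3 complexes and are large catalytic or core subunits. Sdha had 14.2, 14.7 and 16.8 FPKM in cHet polysomes, against 39.7, 38.4 and 44.9 FPKM in cHet input (log2 difference -1.42 ± 0.21, limma, adjusted p = 0.000329). Atp5b, the catalytic beta subunit of ATP synthase, had 81.7, 80.2 and 118 FPKM in cHet polysomes, against 222, 223 and 259.9 FPKM in cHet input (log2 difference -1.35 ± 0.28, adjusted p = 0.00209). Atp5a1, the alpha subunit beside it, had 107, 111 and 137 FPKM in cHet polysomes, against 276, 278 and 315 FPKM in cHet input (log2 difference -1.30 ± 0.23, adjusted p = 0.000800). None of these groups overlapped. The core proteins of complex III behaved likewise: Uqcrc2 had 18.3, 18.0 and 23.9 FPKM in cHet polysomes, against 42.8, 46.9 and 51.2 FPKM in cHet input (log2 difference -1.23 ± 0.23, adjusted p = 0.000993). Uqcrc1 had 23.7, 22.3 and 31.0 FPKM in cHet polysomes, against 49.3, 49.0 and 53.6 FPKM in cHet input (log2 difference -0.99 ± 0.25, adjusted p = 0.00620).

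In cKO the same 5 genes had log2 differences of -0.73 to -0.46, and 3 of them passed the test. Uqcrc2 had 40.4, 22.3 and 19.4 FPKM in cKO polysomes, against 44.1, 42.1 and 43.1 FPKM in cKO input (log2 difference -0.73 ± 0.23, limma, adjusted p = 0.0288). Atp5a1 had 255, 147 and 118 FPKM in cKO polysomes, against 243, 277 and 288 FPKM in cKO input (log2 difference -0.71 ± 0.23, adjusted p = 0.0338). Sdha had 29.8, 16.0 and 15.5 FPKM in cKO polysomes, against 30.0, 34.7 and 29.9 FPKM in cKO input (log2 difference -0.69 ± 0.21, adjusted p = 0.0277). In each of them cKO polysome replicate 1 was the highest polysome library, near or within the range of the input libraries. Atp5b had 224, 117 and 92.5 FPKM in cKO polysomes, against 177, 216 and 269 FPKM in cKO input, and the groups overlapped through replicate 1. The same-numbered difference of Atp5b was 0.34 in cKO replicate 1, against -0.89 and -1.54 in cKO replicates 2 and 3 and -1.47 to -1.13 in the cHet replicates. Without cKO polysome replicate 1, all 5 passed (log2 difference -1.07 to -0.78). Over the fits that left out 1 library, 2441 to 6023 of all genes were called in cKO in either direction, against 4424 with all libraries. Without both libraries that stand apart, all 5 passed as well (-1.04 to -0.61), and 30% of all genes tested were then called lower in cKO. Cox7a2l, described with the short genes, was the remaining member called lower in cKO. The call in cKO also rested on single other libraries: 0 of the 5 passed without cKO input replicate 2, cKO polysome replicate 2 or cKO polysome replicate 3.

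**Figure D3:**
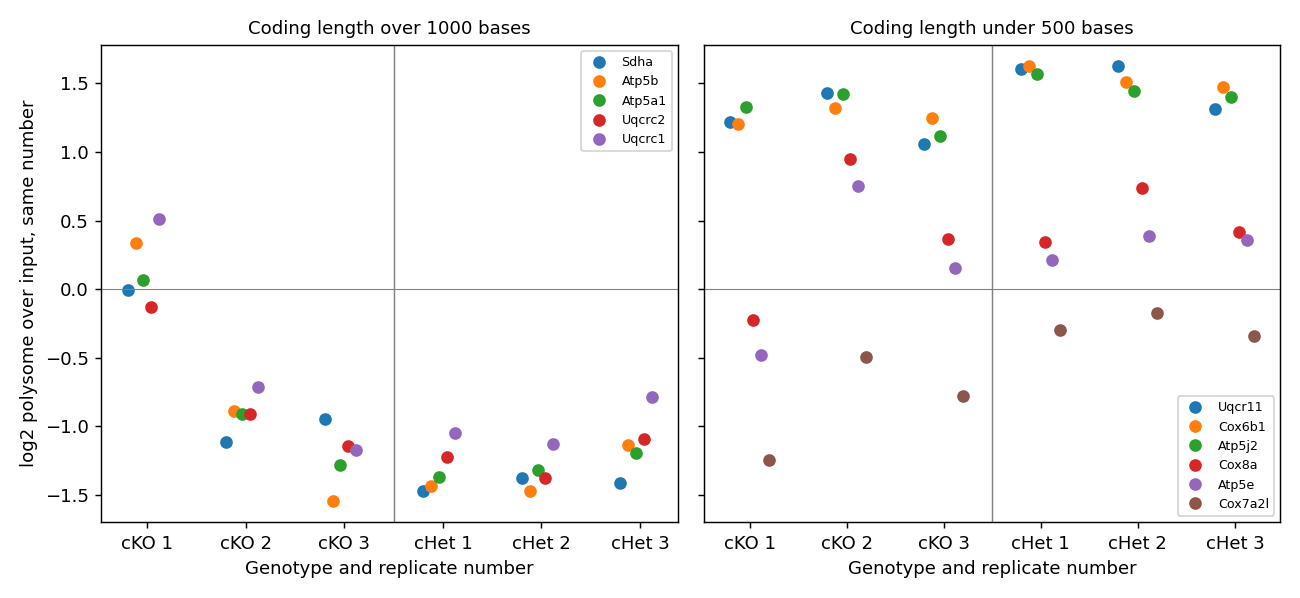
The log2 polysome over input difference of FPKM + 0.1 for same-numbered libraries, 1 point per gene, for the 5 members with a coding length over 1000 bases (left) and 6 members under 500 bases (right). In the left panel cKO replicate 1 lies between -0.13 and 0.51, above the other cKO replicates and all cHet replicates, which lie between -1.54 and -0.72.

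Across members, the difference was lower the longer the coding sequence. In cHet, 27 of 30 members under 500 bases were called higher and 0 lower (median 1.19), 7 of 10 members of 500 to 1000 bases were higher and 0 lower (median 0.72), and 5 of 5 over 1000 bases were lower (median -1.30). In cKO, 25 of 30 under 500 bases were higher and 1 lower (median 0.90), 6 of 10 in the middle class were higher (median 0.54), and the long class had a median of -0.70. Spearman's rho with coding length over the 45 members, which share libraries and were described with no test, was -0.63 in cHet and -0.56 in cKO. All genes showed the same order: over 11864 genes rho was -0.66 in cHet and -0.61 in cKO. In cHet, 71.4% of all genes under 500 bases and 51.6% of those of 500 to 1000 bases were called higher. Of those over 1000 bases, 39.2% were called lower in cHet. In cKO, 57.1% of all genes under 500 bases were called higher and 4.36% lower. There 34.3% of the middle class were called higher, and 21.2% of genes over 1000 bases lower. The length classes were set after the values were seen.

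Most members under 500 bases and all over 1000 bases lay further out than the median gene of like length (coding length within 20%). In cHet, 24 of 30 members under 500 bases lay above the median of such genes, and at the median member 79.8% of genes of like length were lower. All 5 members over 1000 bases lay below it: 2.45% of 2655 genes of like length were lower than Atp5b, 2.70% of 2782 lower than Uqcrc2, 3.04% of 2272 lower than Sdha, 3.19% of 2631 lower than Atp5a1 and 7.67% of 2777 lower than Uqcrc1. In cKO these shares were 5.16% for Atp5b, 2.91% for Uqcrc2, 9.64% for Sdha, 5.55% for Atp5a1 and 12.7% for Uqcrc1. Under 500 bases, 23 of 30 members lay above the median of such genes in cKO, with 70.0% of genes lower at the median member. From 500 to 1000 bases, the same values were 8 of 10 and 62.3% in cHet, and 7 of 10 and 53.6% in cKO. Complex I genes under 500 bases had median log2 differences of 1.15 in cHet and 1.00 in cKO, against 1.19 and 0.90 for members. The shares of genes of like length are positions in a distribution, computed after the values were seen, not tests.

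**Figure D4:**
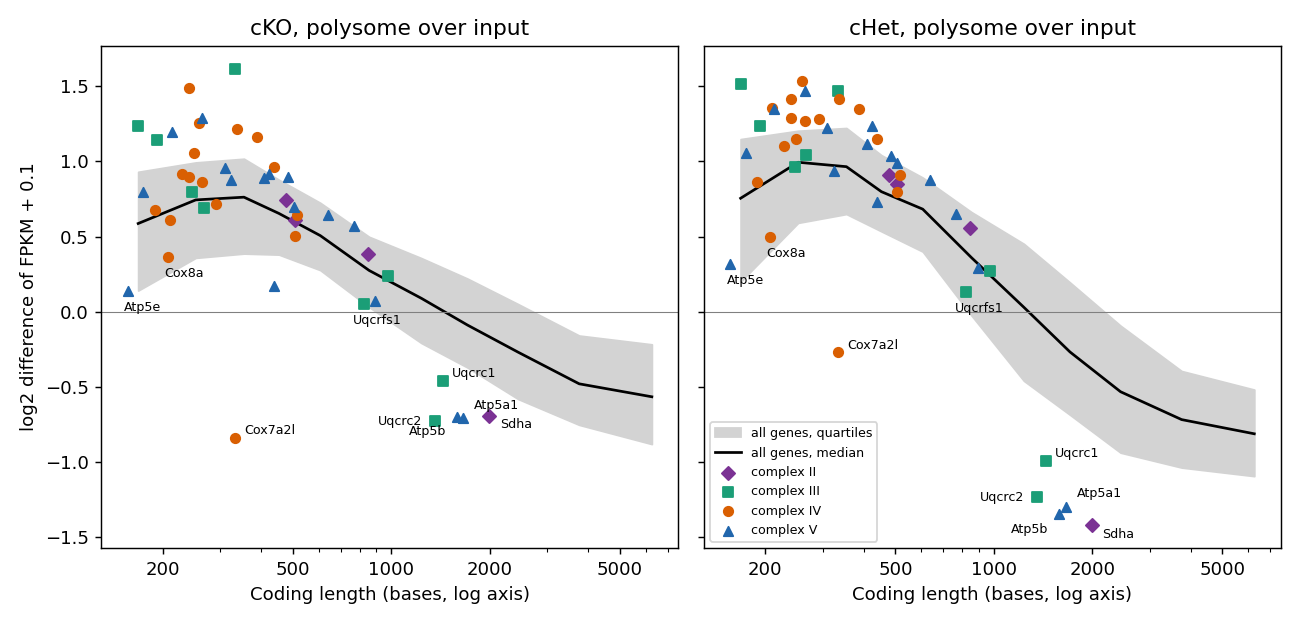
The log2 difference of FPKM + 0.1 between polysomes and input against coding length on a log axis, in cKO (left) and cHet (right), 1 point per member by complex; the line and band give the median and quartiles of all tested protein-coding genes in bins of coding length. In both genotypes the 5 members over 1000 bases lie below the band, and Cox7a2l lies far below it among the short genes.

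Short members outside the pattern were few. Cox7a2l, a COX7A-related protein that links complexes III and IV into supercomplexes, has a coding length of 333 bases, yet it had 127, 161 and 188 FPKM in cKO polysomes, against 300.0, 226 and 322 FPKM in cKO input. It was lower on cKO polysomes with no overlap (log2 difference -0.84 ± 0.18, limma, adjusted p = 0.00474), and 2.15% of genes of like length were lower. In cHet it had 141, 159 and 125 FPKM on polysomes, against 173, 179.7 and 159 FPKM in input, which did not pass (log2 difference -0.27 ± 0.18, adjusted p = 0.215). Atp5e, the epsilon subunit of the rotor, with the shortest coding sequence of all members, and Cox8a, the common form of the smallest complex IV family, did not pass in either genotype. Atp5e had 117, 145 and 121 FPKM in cHet polysomes, against 101, 111 and 94.4 FPKM in cHet input (log2 difference 0.32 ± 0.25, adjusted p = 0.297). Cox8a had 507, 711 and 504 FPKM in cHet polysomes, against 399.8, 427 and 378 FPKM in cHet input (log2 difference 0.50 ± 0.28, adjusted p = 0.145). Both were higher on polysomes in each cHet replicate. The other members that did not pass in cHet were Cyc1, the cytochrome of complex III, Uqcrfs1, its iron-sulfur subunit, and Atp5c1, the gamma shaft of ATP synthase, with coding lengths of 822 to 975 bases. In cKO these 3, Atp5e and Cox8a again did not pass, and neither did Sdhb (0.38), Cox8b (0.61), Atp5g2 (0.17), Uqcrc1 and Atp5b.

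Other genes of mitochondrial respiration, in lists chosen with earlier results of these data known, were counted in the same fits, in which 16.9% of all genes were called higher and 15.6% lower in cKO, and 27.3% higher and 25.9% lower in cHet. Of 37 nuclear complex I subunits, 28 were called higher and 0 lower in cKO, and 29 higher and 3 lower in cHet, among them Ndufb3 (log2 difference 1.48 in cKO). All 20 complex I genes under 500 coding bases were called higher in cHet. Cytochrome c (Cycs), the electron carrier between complexes III and IV, had a log2 difference of 1.21 in cKO and 1.38 in cHet, and Ndufa4, a complex IV subunit despite its name, had 1.20 and 1.41. The 14 citric acid cycle enzymes, all with coding lengths over 1000 bases, had 5 lower and 0 higher in cKO and 12 lower and 0 higher in cHet, with Ogdh, a subunit of the 2-oxoglutarate dehydrogenase complex, at -0.98 and -1.21. Assembly factors of complexes II to V were called higher in 19 of 35 cases and lower in 2 in cKO, and higher in 21 and lower in 2 in cHet. Import receptors and translocases had 8 higher and 0 lower of 16 in cKO, and 10 and 0 in cHet. Regulators of respiratory chain genes had 3 higher and 1 lower of 9 in cKO, and 4 and 2 in cHet, the lower ones including Pprc1, a coactivator (-0.91 in cKO and -0.96 in cHet).

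The 6 subunits of these complexes that the mitochondrial genome encodes went the other way. mt-Co1, a catalytic core subunit of complex IV, had 987, 3239 and 1659.9 FPKM in cKO polysomes, against 10487, 6959 and 5548 FPKM in cKO input. In cHet it had 1402, 3295 and 1769 FPKM on polysomes, against 6252, 6497 and 6012 FPKM in input. All 6 were called lower on polysomes in both genotypes by limma, and mt-Atp8 was listed at 0 in 5 of the 6 polysome libraries. These RNAs are made and translated inside mitochondria, apart from cytosolic polysomes. Reads of the mitochondrial genome made up 0.344% to 1.13% of polysome libraries and 2.30% to 4.85% of input libraries.

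The comparison of genotypes asks whether loss of Mettl14 moves these mRNAs. In input, 0 of 44 tested members passed, as did 0 of 12977 genes (0%; limma, Benjamini-Hochberg), while 6 members and 1943 genes had an unadjusted p under 0.05. The members split into 20 higher and 24 lower in cKO, with a median log2 difference of -0.03 against -0.01 for all genes. Groups did not overlap for 10 members, 6 higher and 4 lower, against 29.3% of all genes. On polysomes, 0 of 45 members and 0 of 12877 genes passed (0%), and 6 members and 2743 genes had an unadjusted p under 0.05. There 11 members were higher in cKO and 34 lower, with a median of -0.20 against 0.02 for all genes. Groups did not overlap for 1 member in the higher direction and 14 in the lower, against 17.9% and 13.5% of all genes.

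The genes with the smallest p in input were Cox7a2l and Uqcrfs1 among the higher ones. Cox7a2l had 300.0, 226 and 322 FPKM in cKO input, against 173, 179.7 and 159 FPKM in cHet input (log2 difference 0.72 ± 0.15, limma, adjusted p = 0.150). Uqcrfs1, which carries the iron-sulfur cluster of complex III, had 148, 121 and 166 FPKM in cKO input, against 95.8, 94.9 and 92.3 FPKM in cHet input (log2 difference 0.61 ± 0.14, adjusted p = 0.160). Every cKO library lay above every cHet library for both genes. Uqcrfs1 was also the only member with no overlap in the higher direction on polysomes, with 192, 123 and 141 FPKM in cKO, against 115, 88.3 and 108 FPKM in cHet (log2 difference 0.53 ± 0.20, adjusted p = 0.194). Without cKO input replicate 3, Uqcrfs1 passed in input (log2 difference 0.50, adjusted p = 0.0486), the only member to do so, while 1.94% of all genes tested were then called higher. Cox7a2l was then at 0.62 with an adjusted p of 0.0512 by limma.

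Among the lower ones in input, Sdha had 30.0, 34.7 and 29.9 FPKM in cKO, against 39.7, 38.4 and 44.9 FPKM in cHet (log2 difference -0.38 ± 0.12, limma, adjusted p = 0.235). Atp5j, coupling factor F6 of the peripheral stalk, had 44.8, 49.4 and 41.3 FPKM in cKO, against 54.1, 57.0 and 53.5 FPKM in cHet (log2 difference -0.28 ± 0.11, adjusted p = 0.299). Neither gene's groups overlapped. On polysomes, Atp5o, the oligomycin sensitivity subunit that joins the stalk to the head, had 74.8, 80.1 and 93.4 FPKM in cKO, against 117, 103 and 118 FPKM in cHet (log2 difference -0.45 ± 0.16, adjusted p = 0.170). Cox7a1 had 0.995, 1.22 and 0.746 FPKM in cKO, against 1.89, 1.22 and 1.71 FPKM in cHet (log2 difference -0.65 ± 0.25, adjusted p = 0.189), a gene with 5 to 23 reads per library. Atp5o lay lower in cKO with no overlap, and the values of Cox7a1 touched at 1.22 FPKM. Atp5a1 had 255, 147 and 118 FPKM in cKO polysomes, against 107, 111 and 137 FPKM in cHet polysomes, and the groups overlapped (log2 difference 0.48 ± 0.28, adjusted p = 0.335).

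By complex, the median genotype difference in input was -0.15 for complex II, 0.04 for III, 0.12 for IV and -0.08 for V, and on polysomes -0.19, 0.08, -0.10 and -0.27. Without cKO input replicate 3 the input median of complex IV was -0.06 and that of complex III -0.04, and without cKO polysome replicate 1 the polysome median of complex IV was 0.11. In input the limb mesenchyme markers differed with genotype, with a summed level in cKO above that in cHet and no overlap. Of these 8 markers, 7 had positive differences in input (median 0.41) and 0 passed by limma, and their part in the members' values was not tested. On polysomes the members differed by coding length: 25 of 30 under 500 bases were lower in cKO, and 5 of 5 over 1000 bases were higher (0.35 to 0.54), none of them passing. All genes showed the same order, with 75.7% of those under 500 bases lower and 33.1% of those over 1000 bases lower. Without cKO polysome replicate 1 the members split into 20 higher and 25 lower (median -0.09), the 5 long members were at 0.05 to 0.18, and 50.5% of all genes under 500 bases were lower. Summed levels of markers of other cell types also stood out in that library. The 6 epidermis markers summed to 322, 169 and 153 FPKM in cKO polysomes, against 111, 126 and 118 FPKM in cHet polysomes. The 6 macrophage markers summed to 59.5, 34.0 and 32.8 FPKM in cKO polysomes, against 22.4, 21.7 and 30.2 FPKM in cHet polysomes. The 6 endothelium markers summed to 37.4, 22.9 and 28.0 FPKM in cKO polysomes, against 22.5, 23.6 and 27.6 FPKM in cHet polysomes, and the 6 erythroid markers to 2688, 8109 and 6088 FPKM in cKO polysomes, against 4929, 4547 and 7802 FPKM in cHet polysomes. cKO polysome replicate 1 was thus the highest polysome library for epidermis, macrophage and endothelium markers and the lowest for erythroid ones. It was also the highest for skeletal muscle markers (655 FPKM) and citric acid cycle enzymes (460 FPKM), and the lowest for limb mesenchyme markers (1044 FPKM). Its epidermis sum lay within the range of cKO input, 310 to 343 FPKM. These lists also differ in coding length. The epidermis markers have 945 to 2652 coding bases, whereas Hba-a1, the erythroid marker with the highest level, has 426. Twist1, the limb mesenchyme marker with the highest level, has 618. The part of coding length in these sums, and what sets this library apart, was not tested. The 12 epidermis and macrophage markers were above 0 in every library and had positive genotype differences in both fractions, and the part of these cell types in the members' values was not tested.

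**Figure D5:**
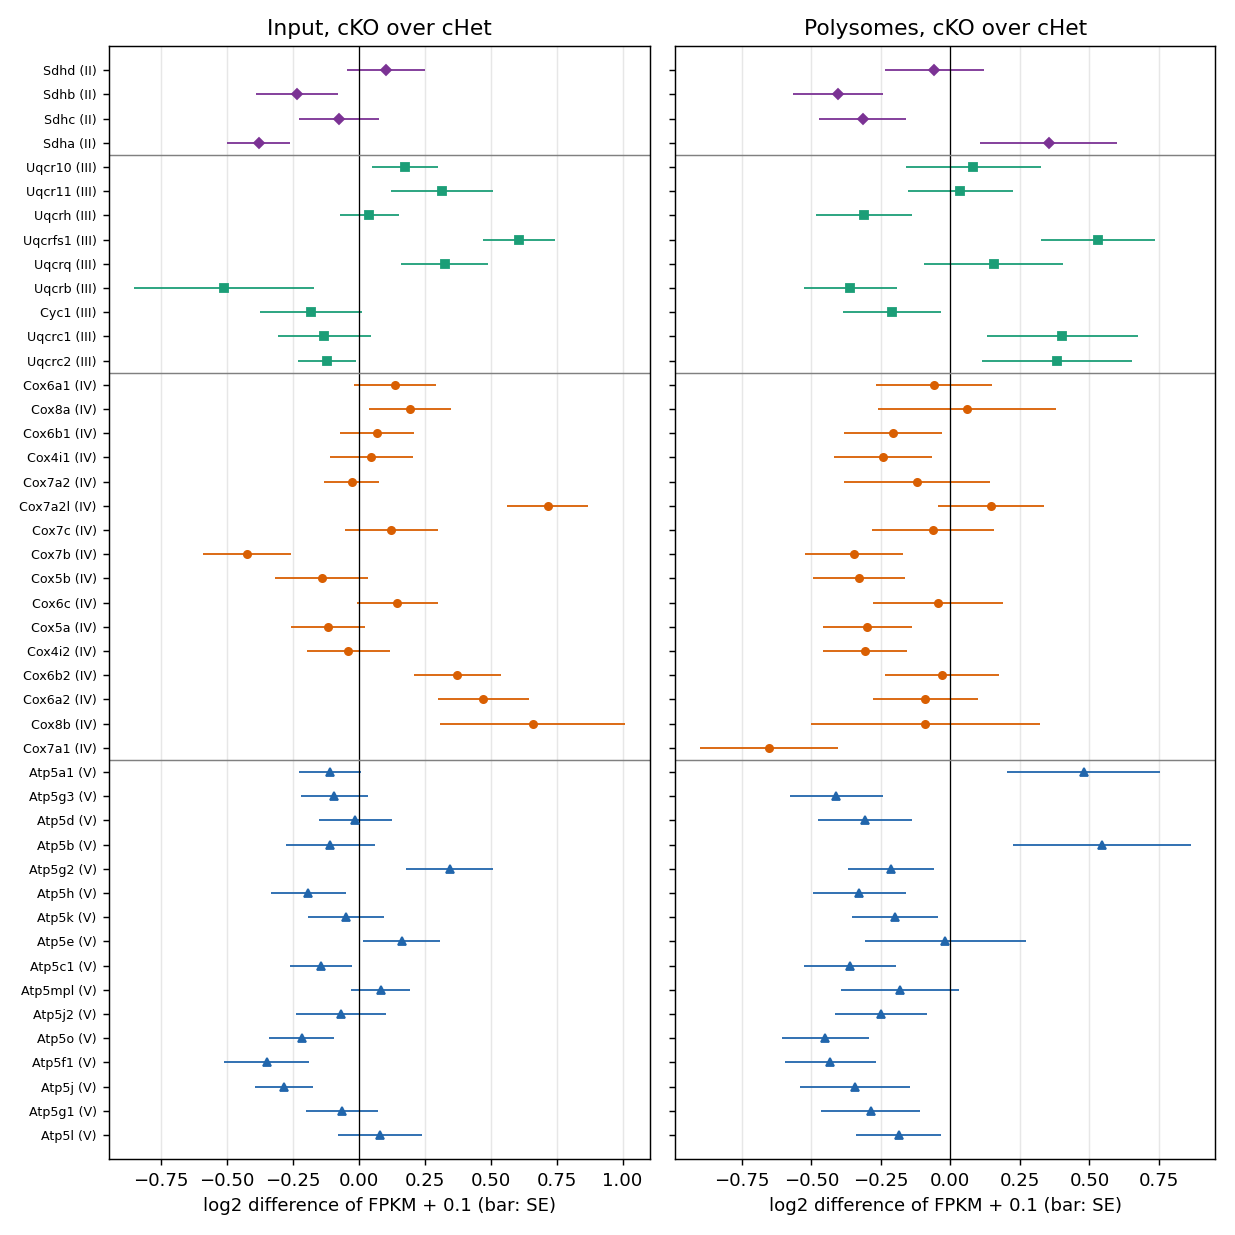
The log2 difference of FPKM + 0.1 between cKO and cHet for each tested member in input (left) and on polysomes (right), with its SE as a bar, ordered by complex and mean level. No member passed the test in either panel; on polysomes 34 of 45 lie left of 0, and the 5 members over 1000 coding bases lie right of it.

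The interaction asks whether the polysome to input difference itself changed with genotype. None of the 45 members passed, nor did any of 13610 genes (0 called, 0%; limma, Benjamini-Hochberg), with an unadjusted p under 0.05 in 3 members and 638 genes. The estimate was negative, meaning a lower polysome to input difference in cKO, for 38 members. The median over members was -0.19, against 0.02 for all genes. The positive ones were led by Sdha (0.73 ± 0.30, adjusted p = 0.790) and Atp5a1 (0.59 ± 0.33, adjusted p = 0.790). The negative ones with the smallest p were Atp5g2 (-0.56 ± 0.22, adjusted p = 0.790) and Cox7a2l (-0.57 ± 0.25, adjusted p = 0.790). Without both libraries that stand apart the median of the members was 0.02, and 24 were positive and 21 negative.

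Some sequence words recurred in the members' promoters. RefSeq promoter sequences (GRCm38.p6, 250 bases before to 50 after the start) were matched for 35 members. The NRF1 word GCATGCGC, searched on both strands, was in 7 of them, among them Uqcrc1, Cox6a1 and Uqcr11, against 3.05% of 27025 promoters. The ETS word CCGGAAG was in 12 (34.3%), against 9.93% of those genes, and the YY1 word AAGATGGCG in 2 (5.71%), against 1.64%. Overlap between matches of different words was not assessed. These matches describe the sequence and were not set against the expression values.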

How the data were processed

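RNA-seq was measured in polysome and input RNA of limb buds from 4 groups of 3 libraries. Per the submitters' processing notes, reads were aligned with HISAT2 2.0.5 to mm10 and counted with featureCounts 1.5.0-p3. The deposited values are FPKM per gene, computed by the authors. Their median ratio to the geometric mean over libraries was 1.02 in each of the 12 libraries (18104 genes). The values were thus already on a common median scale, which in part sets the median near 0 over all genes between polysomes and input. The annotation release, strandedness and RNA selection are not given in the sources used here. FPKM times gene length gave whole reads for 100% of values (tolerance 0.01), which supplied the depth per library, 10349912 to 30068823 reads; precision is limited by 3 libraries a group. Of the 48 members, 14 have exons that overlap another annotated gene, 12 of them on the opposite strand, for example Uqcrc2 with Pdzd9 (19.7% of its exonic bases) and Atp5j with Gabpa (12.7%), so without strand those reads cannot be told apart.

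Genes with FPKM of at least 1 in at least 3 fitted libraries were tested on log2(FPKM + 0.1) with limma 3.58.1 (R 4.3.3, empirical Bayes with a trend), with Benjamini-Hochberg adjustment over all genes tested and a threshold of 0.05. Genotypes were compared within input and within polysomes over 6 libraries each; polysomes were compared with input within each genotype, and the interaction taken, over 12 libraries. Only the genotype fit in input was tested on simulated data, with no library standing apart. The fits with polysome libraries were not simulated. Groups were taken from the genotype and fraction labels. Same-numbered polysome and input libraries of a genotype correlated weakly in their deviations from group means (0.05 to 0.25 over 13610 genes). For same-numbered libraries of different genotypes the range was -0.28 to 0.17, positive only for polysome replicate 2. The ranges overlap, so these values do not settle whether the numbers pair libraries, either within a genotype or across genotypes. The main fits used no pairing, and counts with the replicate number within a genotype as a block are given below.

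The members and lists were chosen with earlier results of these data known. Genes named with all values are the highest and lowest member of each complex, up to 4 called members per direction and comparison (or the 2 with the smallest p where none was called), and the paralog sets; Uqcrc1, Atp5e, Cox8a and Cox7a2l in cHet were added after their values were seen. Alternatives were other pseudocounts, filters, scalings, removal of a gene-length trend, limma voom on recovered reads, a replicate block, each library left out, and a minimum log2 difference. In the fit over 12 libraries, median-ratio scaling could change nothing, since the values already had equal median ratios. Main transcript lengths and coding-length classes were added after the data were seen. Protein sequences were not used here.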

Additional observations from a re-analysis of the deposited data

How the results depend on the processing

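No called result reported here changed direction under the alternatives run. In cHet, the members' median polysome difference was 0.93 with a pseudocount of 1, 0.76 under protein-coding scaling (which moved the median of all genes to -0.20), 0.63 after quantile normalization and 0.66 with the length trend removed. The medians of complexes II, III, IV and V were 0.48, 0.74, 0.98 and 0.74 under protein-coding scaling, 0.33, 0.55, 0.89 and 0.57 after quantile normalization, and 0.40, 0.62, 0.86 and 0.66 with the length trend removed. The ratios of complex sums, polysome over input, were 1.30, 1.57, 1.73 and 1.22 under protein-coding scaling, in place of 1.52, 1.84, 2.02 and 1.42. Asking also for a log2 difference of at least 1 left 22 members higher and 2318 genes called. In cKO, that rule left 10 members called, 10 higher and 0 lower, 880 genes called and 0 of the 5 long members lower. With no filter 1 member was called lower, and 0 of the long ones. The median of complex V was 0.45 after quantile normalization. Without both libraries that stand apart 8012 genes were called and 5 long members were lower. Leaving out single libraries gave 1 to 6 members lower, 0 to 5 long members lower and 2441 to 6023 genes called. In input, genotype calls ranged from 0 to 326 genes and from 0 to 1 members (higher 0 to 1), and the median of complex IV from -0.058 (without cKO input replicate 3) to 0.23; 47 genes passed without cKO input replicate 2 and 326 without cKO input replicate 3. On polysomes they ranged from 0 to 231 genes, with 231 without cKO polysome replicate 2 and 160 without replicate 1, and the median of complex V from -0.33 to -0.14. The interaction called 1 gene with a pseudocount of 0.01 and 7 with no filter, and protein-coding scaling moved its median over all genes to 0.12. By recovered reads, Cox4i2 averaged 2.51%, Cox6b2 6.90%, Cox7a1 0.265%, Atp5g1 16.3% and Atp5g2 33.3% of their sets, in place of 4.82%, 4.53%, 0.467%, 7.18% and 42.8%, a change that follows from the gene lengths. The causes of the other changes were not tested.

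With the replicate number as a block, 42 genes passed between genotypes on polysomes and 0 members; with the replicate number within a genotype as a block, 30 members were higher and 4 lower in cKO and 34 and 5 in cHet. Limma voom on recovered reads called 4661 genes between polysomes and input in cKO and 7359 in cHet, with members at 31 higher and 4 lower in cKO and 34 and 5 in cHet, and 0 genes between genotypes. With 3 libraries a group, and with 5 to 23 reads for Cox7a1, small differences were not detectable.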
